A study of Mus musculus with 14 samples.

Results

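The IL-4 response of monocytes labelled AhR-deficient was described from 6 of the 14 libraries in the series: the 3 IL-4 libraries of this genotype, numbered 4, 5 and 6 in their titles, against the 3 medium libraries that carry the same numbers. All 6 came from bone marrow of mouse legs, from monocytes taken with an isolation kit (purity of 90 to 95% in flow cytometry as the labels state it) and cultured ex vivo for 3 h in medium alone or with mouse IL-4 at 20 ng/mL. The series also holds 8 wild-type libraries, 4 per treatment, which enter the same fit. They are used below only to show where the responses of the genotypes differ and for the levels of Ahr, Ahrr and Xist. The labels give neither the Ahr allele nor the strain, age or sex, and they do not say whether a number is an animal or a pool. P-values therefore measure only the spread between these samples, which may be technical. The study asked how mouse monocytes with and without AhR respond to IL-4 at the level of messenger RNA.

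IL-4 binds a receptor on monocytes whose Janus kinases phosphorylate the transcription factor STAT6, and STAT6 dimers then bind gene control regions. In macrophages this drives the state called alternative activation, known for arginase, mannose receptor and chitinase-like proteins, while genes of the inflammatory state tend to be held down. AhR, the aryl hydrocarbon receptor, is a cytoplasmic protein that moves to the nucleus once it has bound planar ligands, some of them made from tryptophan, and switches on detoxifying enzymes and its own repressor.

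The 6 libraries held 35040003 to 39940475 counts each, and 14754 genes had enough counts to be tested. Each of the 20 monocyte markers looked up, among them Lyz2, Csf1r and Fn1, had counts in these libraries. Their summed level was 40850 to 44120 CPM (counts per 1000000 after scaling for library size) in medium and 29010 to 30860 CPM in IL-4. Among markers of other cells, 20 neutrophil markers summed to 1162 to 1598 CPM in medium and 15 dendritic cell markers to 428 to 567 CPM. The sums were 98.8 to 212 CPM for basophils and mast cells, 66.3 to 139.5 CPM for erythroid cells and platelets, 43.1 to 71.0 CPM for B cells, 15.9 to 84.2 CPM for 9 eosinophil markers and 14.3 to 21.9 CPM for 16 T and NK cell markers, with the NK marker Ncr1 at 0. The label was not borne out by a lower Ahr count. Ahr was read at 26.1, 21.0 and 15.7 CPM in medium and 45.2, 43.7 and 36.9 CPM in IL-4 for numbers 4, 5 and 6, above the wild-type means of 13 and 25.5 CPM. Counts per gene cannot show a deleted exon, so the label is used here as given. The gene lies at chr12:35497974-35535038 on the minus strand (GRCm38).

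Within the genotype Ahr messenger RNA rose with IL-4, by 1.02 ± 0.09 on the log2 scale (edgeR, adjusted p = 7.1e-06), with no overlap between the groups. The receptor's repressor gene Ahrr rose from 4.47, 6.39 and 6.29 to 6.63, 8.94 and 9.29 CPM (0.54 ± 0.14, adjusted p = 0.014), and its adjusted p was 0.080 without the replicate block and 0.066, 0.051 and 0.073 without number 4, 5 and 6. In the wild-type IL-4 libraries Ahrr was higher than in these, at 12.1 to 17.3 CPM. In wild-type medium it was at 5.013 to 8.945 CPM, which overlaps the medium libraries here. These differences in level between the genotypes were not tested. Here and below, triplets are given in the order of the numbers 4, 5 and 6, and changes are log2 values for IL-4 against medium ± the standard error of the fit. "Rose" and "fell" are used where the Benjamini-Hochberg adjusted p of edgeR's quasi-likelihood test was under 0.05. Members that only complete a count of 5 or fewer were named after their values were seen. The classical AhR target Cyp1a1, which encodes a detoxifying enzyme, had 0 counts in all 3 medium libraries and 0, 0 and 2 counts in IL-4. Of its relative Cyp1b1, 0 counts in medium faced 18 in IL-4, a ratio of 6.03 with 3 counts over the group in place of 0. Both stayed near the limit of what these libraries can count. Of 12 tested genes of AhR, its partners and its targets, 6 rose and 3 fell. Lpxn, which encodes an adhesion adaptor, rose by 1.84 ± 0.05, and Xdh, the gene of xanthine dehydrogenase, by 0.94 ± 0.06. Nfe2l2, the gene of the antioxidant factor NRF2, fell by 1.30 and Nqo1, a quinone reductase gene, by 1.32. The number that rose was 3 without the replicate block and 3 when number 4 or number 5 was left out.

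Promoter windows of the strongest risers are shown because the response to IL-4 runs through STAT dimers, whose core motif is an inverted repeat. From RefSeq (GRCm38.p6), windows of 300 bases, 250 before the annotated start and 50 after it, were matched by symbol for 7 of the 12 largest rises and searched on both strands for TTCNNNNGAA and TTCNNNGAA, with matches counted also where they overlap. Among the 7, 3 held a match, and these windows follow 5′ to 3′ with the match in capitals. Cish lies at chr9:107296409-107296708 on the plus strand, Batf3 at chr1:191098164-191098463 on the plus strand and Edn1 at chr13:42301226-42301525 on the plus strand.
Cish: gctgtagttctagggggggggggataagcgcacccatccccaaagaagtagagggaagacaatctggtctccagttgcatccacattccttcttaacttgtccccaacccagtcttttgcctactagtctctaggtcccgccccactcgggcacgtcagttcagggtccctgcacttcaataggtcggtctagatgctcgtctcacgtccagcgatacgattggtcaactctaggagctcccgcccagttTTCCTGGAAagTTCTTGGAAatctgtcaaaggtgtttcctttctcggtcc
Batf3: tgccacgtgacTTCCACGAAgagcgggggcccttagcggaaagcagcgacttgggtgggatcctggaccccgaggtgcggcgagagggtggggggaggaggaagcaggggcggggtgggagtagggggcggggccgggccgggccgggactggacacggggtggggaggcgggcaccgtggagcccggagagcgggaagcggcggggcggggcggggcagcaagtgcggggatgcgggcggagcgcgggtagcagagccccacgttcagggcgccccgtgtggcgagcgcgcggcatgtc
Edn1: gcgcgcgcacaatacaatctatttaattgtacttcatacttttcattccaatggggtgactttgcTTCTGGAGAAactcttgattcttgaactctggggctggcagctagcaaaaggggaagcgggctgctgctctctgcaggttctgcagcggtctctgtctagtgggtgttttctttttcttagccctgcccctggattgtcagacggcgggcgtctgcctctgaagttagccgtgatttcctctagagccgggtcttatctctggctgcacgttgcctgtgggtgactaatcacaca
The Cish window held TTCNNNGAA at bases 251 and 262 of the window, both just past the annotated start, the Batf3 window held it at base 12, and the Edn1 window held TTCNNNNGAA at base 66. The windows of Socs1, Mrc1, Prnp and Slc30a4 held neither pattern, and neither did those of the 11 largest falls that had a window. Over all genes with a window, 8.01% held TTCNNNNGAA and 9.55% held TTCNNNGAA. Among the tested genes that rose by a log2 of 1 or more these shares were 10.5% and 9.89%, among those that fell by as much 5.82% and 10.9%, and among those not called 6.64% and 8.35%. A match is a description of letters and not a binding site, and its absence says only that these letters are not in the window.

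IL-4 changed 5344 of the 14754 tested genes within 3 h, 36.2% of them, with rises and falls in nearly equal number. Of these, 2717 rose (18.4% of those tested) and 2627 fell (17.8%). Most changes were small. The median rise was 0.47 and the median fall -0.46 on the log2 scale, and 2819 of the calls (52.8%) were under 0.5 in size. A change of 1 or more was reached by 1277 genes (8.66%), with 679 rises (4.6%) and 598 falls (4.05%). Large changes leaned to rises: 296 genes rose and 158 fell by 2 or more, and 86 rose and 8 fell by 4 or more. Without the replicate block, a fit that ignores the pairing of the numbers, 2265 genes rose and 2094 fell, and 662 and 565 changed by 1 or more.

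Of all 14754 tested genes, 9611 (65.1%) had the same sign in each of the 3 pairs, and 43.7% had no overlap between IL-4 and medium libraries. The calls were made from these same pairs, so their own shares, 5337 of 5344 with 1 sign and 4843 with no overlap, only describe them. So do their medians by pair. The median change of the genes that rose by 1 or more was 1.71, 1.73 and 1.72 in pairs 4, 5 and 6. For the genes that fell by 1 or more it was -1.44, -1.36 and -1.52. Treatment was the main axis of the 6 libraries, with 82.6% of the variance on the first principal component, followed by 7.89% and 6.65% on the next components. In medium the genes that later fell by 1 or more held 7.02% of all CPM and in IL-4 2.46%, while the genes that rose by 1 or more went from 1.70% to 5.40%.

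The share of genes called grew with expression. Among genes with a mean log2 CPM under 0 over the 6 libraries, 263 of 3205 rose and 217 fell (15% called), and from 0 to 2 it was 244 and 253 of 1857 (26.8%). Between 2 and 4 the share was 36.6%, between 4 and 6 43.8%, between 6 and 8 49.2%, and from 8 upward 60.4% of 815 genes. The standard error shrinks along the same axis, from a median of 0.41 under 0 to 0.05 at 8 and over, so the share called and the precision moved together. A change of 1 or more was called for 13.7% of the genes under 0 and 12.2% of those from 0 to 2, against 4.79% between 4 and 6 and 7.24% at 8 and over. With standard errors of that size only large changes can pass in the lowest bins, so the size of the calls there is set in part by the threshold.

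**Figure D1:**
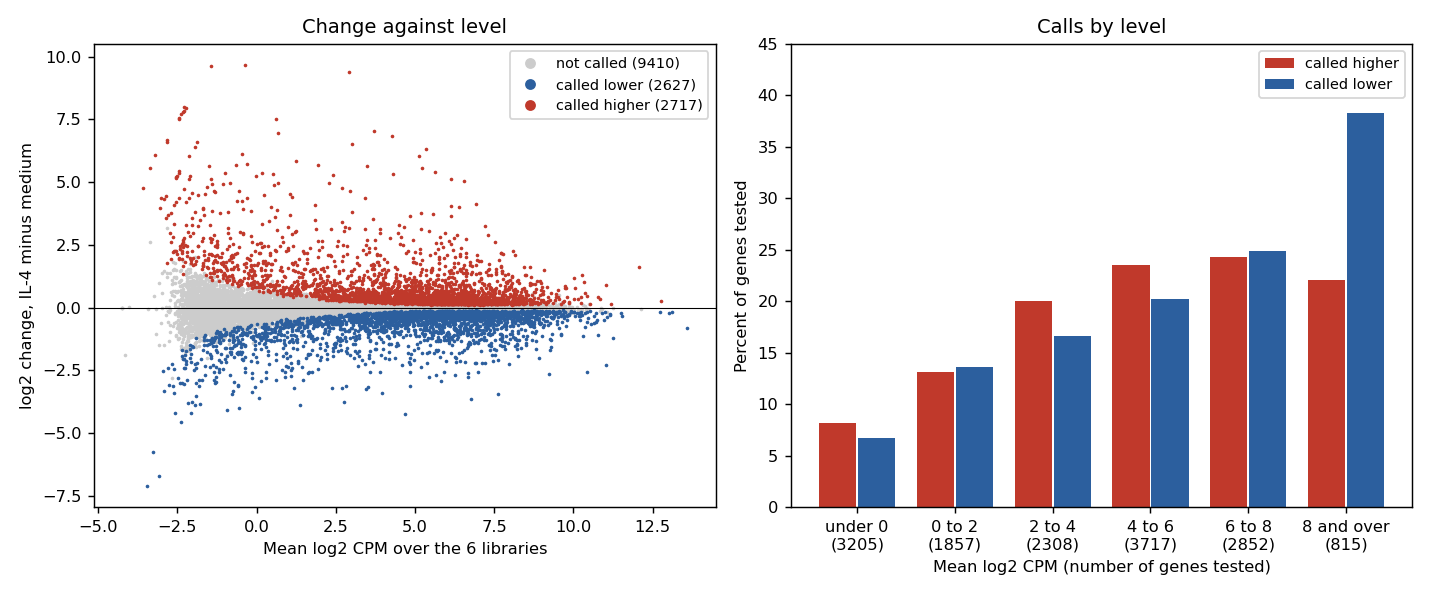
Left, log2 change between IL-4 and medium (y axis) against mean log2 CPM over the 6 libraries (x axis) for each tested gene, with 2717 higher, 2627 lower and 9410 not called. Right, percent of genes called higher and lower in each bin of mean log2 CPM, which climbs from 15% in all under 0 to 60.4% at 8 and over.

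The most abundant transcripts fell more often than they rose. At a mean log2 CPM of 8 or more, where 815 genes held 51.6% of all CPM in medium, 312 fell (38.3%) and 180 rose (22.1%). In the bin from 4 to 6 the balance was 753 falls and 874 rises. Rises made up 36.6% of the calls in the top bin, and 34.4 to 37.5% without the replicate block, with DESeq2's size factors or with upper-quartile scaling. Genes named here and below for the size of their change were taken from calls with no overlap between the groups and a mean log2 CPM of at least 1, so the lack of overlap is given by that choice. Lyz2, the gene of the lysozyme that monocytes secrete, fell from 15170, 16700 and 17980 CPM to 8999, 9058 and 10060 (-0.82 ± 0.05). Fth1, the heavy chain of ferritin, fell from 5287, 4019 and 4714 CPM to 1004, 894 and 950.2 (-2.29 ± 0.09). Thbs1, the gene of the matrix protein thrombospondin, fell from 2423, 5085 and 3076 CPM to 498, 800.2 and 442 (-2.58 ± 0.13), and its medium level was highest in number 5. Cybb, the catalytic subunit of the phagocyte oxidase, fell from 4184, 3285 and 3816 CPM to 1717, 1533 and 1595 (-1.21 ± 0.10). The other genes among the 10 largest losses in CPM under that rule were Lcp1 (-1.08 ± 0.05), Clec4e (-2.66 ± 0.17), Vcan (-1.15 ± 0.10), Eef1a1 (-0.19 ± 0.04), Sema4d (-1.67 ± 0.13) and Hp (-1.57 ± 0.13). Of these, Eef1a1 lost its call without number 6 (edgeR, adjusted p = 0.057). Fn1, whose groups overlapped, lost more CPM than several of these and is described below.

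The abundant genes that gained most CPM have varied roles. Chil3, a chitinase-like secreted protein, rose from 1829, 2647 and 3030 CPM to 6515, 8036 and 8236 (1.63 ± 0.10) and was lowest in number 4 under both treatments. Clec7a, the receptor dectin-1 for fungal glucans, rose from 729, 765 and 865 CPM to 2052, 1904 and 1905 (1.32 ± 0.08). Ahnak, a very large scaffold protein gene, rose from 1390, 1670 and 1542 CPM to 2840, 2937 and 2838 (0.91 ± 0.05). Psap, the precursor of the lysosomal saposins, gained nearly as many CPM from a small change (0.25 ± 0.05), from 6110, 6377 and 6845 to 7427, 7701 and 7876. The kinase gene Prkcd (1.02 ± 0.07), the clathrin heavy chain gene Cltc (1.19 ± 0.06), the adenylate cyclase gene Adcy7 (1.48 ± 0.06), Fam129b (0.77 ± 0.05), the cathepsin gene Ctss (0.59 ± 0.05) and the complement gene C3 (0.43 ± 0.04) completed the 10 largest gains. At a mean log2 CPM of 8 or more the largest rises in log2 were those of Sla (2.25 ± 0.05), an adaptor that dampens receptor signals, and Smap2 (2.10 ± 0.06).

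The largest rises on the log2 scale started from almost nothing. Arg1, arginase, was read at 0.166, 0.438 and 0.223 CPM in medium and 181, 228 and 148 in IL-4 (9.37 ± 0.12, adjusted p = 2.2e-11), from 6, 17 and 8 counts to 6293, 9125 and 5843. Slc7a2, an arginine transporter gene, rose from 1.90, 1.47 and 2.03 CPM to 209, 215 and 197 (6.84 ± 0.09). Mrc1, the mannose receptor gene, rose from 3.59, 5.44 and 4.82 CPM to 346, 408 and 339 (6.31 ± 0.13). For these genes the lowest IL-4 library lay far above the highest medium library, and the spread among the IL-4 libraries was small beside the change. Socs1 and Cish encode inhibitors that bind cytokine receptors and their kinases. Socs1 rose from 1.35, 0.902 and 1.14 CPM to 143, 144 and 153 (7.02 ± 0.15) and Cish from 5.71, 7.35 and 3.76 CPM to 276, 235 and 273 (5.55 ± 0.21). Batf3, a transcription factor of dendritic cell development, rose from 0.966, 0.748 and 0.752 CPM to 74.7, 71.1 and 83.8 (6.54 ± 0.13). Ppargc1b, a coactivator of mitochondrial genes, rose from 0.193, 0.412 and 0.278 CPM to 13.3, 18.8 and 19.1 (5.83 ± 0.15). Medium levels of all of these were under 8 CPM in each library.

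Other strong risers encode a range of proteins. Tbc1d16, which encodes a Rab GTPase activator, rose from 3.75, 4.02 and 5.09 CPM to 267, 264 and 319.9 (6.05 ± 0.09). Prnp, the prion protein gene, rose from 1.44, 1.86 and 1.45 CPM to 78.8, 79.3 and 78.9 (5.64 ± 0.11), and its IL-4 libraries were nearly equal. Slc30a4, a zinc transporter gene, rose from 10.5, 6.78 and 6.38 CPM to 358, 319 and 298 (5.39 ± 0.15). Edn1, the precursor of the vasoconstrictor endothelin, and Cdh1, E-cadherin, were also among the 12 largest rises. Edn1 rose from 0.772, 0.464 and 0.334 CPM to 30.5, 20.2 and 31.7 (5.70 ± 0.20) and Cdh1 from 4.75, 3.66 and 1.42 CPM to 127, 135 and 126 (5.33 ± 0.23). At a mean log2 CPM between 6 and 8 the largest rises were Flt1, a receptor for vascular growth factors, by 5.12 ± 0.23, and the transcription factor gene Irf4, from 20.1, 14.4 and 15.1 CPM to 515, 532 and 590.0 (5.05 ± 0.13). Genes at 0 or 1 count in medium were named after their values were seen. Retnla, a resistin-like secreted protein gene, went from 0 counts to 92, 131 and 73, a ratio of 99.15 with 3 counts over the group in place of 0. Car4, a carbonic anhydrase gene, had 1 count over the 3 medium libraries and 1147 over the 3 IL-4 libraries, a ratio of 1153 with an exact 95% interval of 206.5 to 45570 that covers counting error only.

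**Figure D2:**
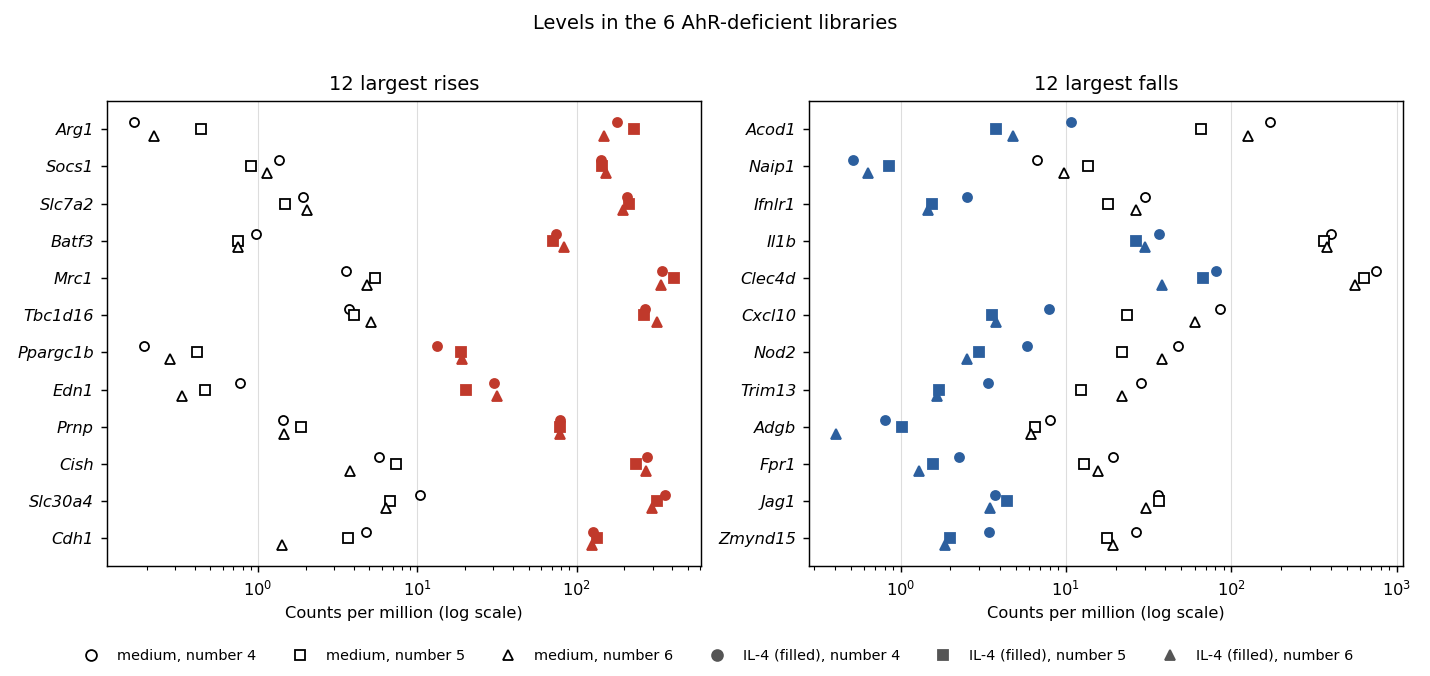
CPM on a log axis for the 12 largest rises and the 12 largest falls, 1 row per gene, with open markers for the medium libraries and filled markers for IL-4. Circles, squares and triangles stand for numbers 4, 5 and 6. In each row the filled and open markers are apart, as the naming rule required.

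The largest falls under the same rule, which leaves out genes of low level, included cytokine, chemokine and innate sensor genes. Of the 8 falls of 4 or more only Acod1 reached a mean log2 CPM of 1. Acod1, the enzyme that makes itaconate, fell from 171, 65.8 and 126 CPM to 10.8, 3.80 and 4.77 (-4.26 ± 0.39, adjusted p = 1.1e-05). Il1b, the gene of interleukin-1 beta, fell from 402, 365 and 379 CPM to 36.5, 26.7 and 29.9 (-3.63 ± 0.26). Clec4d, a lectin receptor for mycobacterial lipids, fell from 753, 639.7 and 559 CPM to 80.4, 68.0 and 38.3 (-3.44 ± 0.15). Il1b was even over the medium libraries, while Acod1 was lowest in number 5. Among the innate sensors, Naip1 fell from 6.68, 13.6 and 9.71 CPM to 0.516, 0.849 and 0.635 (-3.90 ± 0.21) and Nod2, a sensor of bacterial wall fragments, from 47.8, 21.9 and 37.9 CPM to 5.80, 2.97 and 2.51 (-3.26 ± 0.20). Cxcl10, a chemokine for T cells, fell from 85.5, 23.5 and 60.7 CPM to 7.89, 3.55 and 3.76 (-3.42 ± 0.36), and Ifnlr1, a receptor chain for type III interferon, from 30.3, 17.9 and 26.4 CPM to 2.52, 1.55 and 1.47 (-3.75 ± 0.27). Nod2, Cxcl10, Ifnlr1 and Trim13 (28.6, 12.3 and 21.9 CPM in medium, -3.22 ± 0.26) shared the low medium value of number 5, and each still fell in all 3 pairs. Jag1, a Notch ligand gene, fell from 36.1, 36.5 and 30.5 CPM to 3.70, 4.42 and 3.48 (-3.15 ± 0.11). The formyl peptide receptor gene Fpr1 (-3.22 ± 0.15), Adgb (-3.22 ± 0.26) and Zmynd15 (-3.14 ± 0.19) were the others among the 12 largest falls, and Gpr84, a receptor for medium-chain fatty acids, fell too (-3.12 ± 0.27).

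Among components of the IL-4 receptor pathway the largest change was a fall of a receptor chain. Il4ra, the ligand-binding chain, rose from 119, 136 and 135 CPM to 139, 163 and 160.0 (0.25 ± 0.06, adjusted p = 0.0049, and 0.071 without the block). Stat6 was at 441, 415 and 455 CPM in medium and 416, 411 and 424 in IL-4 (-0.07 ± 0.05, adjusted p = 0.32), which did not pass. Of 16 tested receptor chains, kinases and adaptors, 5 rose and 4 fell, with a median of -0.03 beside -0.01 over all tested genes. Leaving out number 4 left 2 falls. Il13ra1, the chain that pairs with Il4ra in the type II receptor, fell from 82.3, 89.4 and 105 CPM to 24.4, 26.5 and 26.9 (-1.82 ± 0.06), and the common gamma chain gene of the type I receptor, Il2rg, fell by 0.95. Tyk2 and Ptpn11 were the other falls. The adaptor gene Irs2 (1.40 ± 0.05) and the kinase gene Jak2 (0.95 ± 0.09) rose, and so did the kinase subunit genes Pik3cd (0.32 ± 0.04) and Pik3r1 (0.39 ± 0.06). Among 14 feedback inhibitors, 7 rose and 3 fell. Beside Socs1 and Cish, Socs5 (1.43 ± 0.05) and Socs6 (1.77 ± 0.07) rose. The ERK inhibitor genes Spred1 (-2.21 ± 0.19) and Spred2 (-1.09 ± 0.12) fell, and so did Pias3.

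Alternative activation effectors rose for the most part, and several of them moved the other way. Of 28 tested members 20 rose and 5 fell, with a median of 1.86. The falls numbered 3 without the replicate block. Chil4, a chitinase-like gene, rose from 0.0552, 0.0773 and 0.139 CPM to 14.4, 19.8 and 17.5 (7.53 ± 0.20), the lectin gene Mgl2 from 8.30, 10.6 and 11.2 CPM to 136, 147 and 123 (3.75 ± 0.10) and its paralog Clec10a from 50.4, 63.7 and 60.3 CPM to 439.6, 458 and 411 (2.91 ± 0.10). Reads of Mgl2 and Clec10a, or of Chil3 and Chil4, may be hard to part, since the pairs are close paralogs. The 5 falls, named after their values were seen, were the scavenger receptor gene Msr1 (-1.49 ± 0.07), the clotting factor gene F13a1 (-0.50 ± 0.05), the chemokine gene Ccl22 (-2.57 ± 0.38), the fibronectin gene Fn1 (-0.20 ± 0.04) and the transglutaminase gene Tgm2 (-0.69 ± 0.15). Fn1 lost its call without number 5 (edgeR, adjusted p = 0.054) and without the block (0.33), and Tgm2 without number 4 (0.056) and without the block (0.085). The members furthest from the threshold were Il1rn (-0.02 ± 0.18) and Alox15 (-0.06 ± 0.28), the latter at 4.88, 2.58 and 0.919 CPM in medium, and Alox15 is also 1 of the 9 eosinophil markers, whose sum was highest in number 4.

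Transcription regulators linked to IL-4 split between both directions. Of 30 tested, 13 rose and 9 fell. The falls numbered 5 without the replicate block and 6 without number 4 or number 6. The rises numbered 10 without the block and 16 with no filter on low counts. Beside Batf3, Ppargc1b and Irf4, the growth regulator gene Myc rose from 5.90, 5.16 and 4.48 CPM to 18.3, 17.2 and 15.1 (1.70 ± 0.08) and the myeloid factor gene Cebpa from 122, 125 and 144 CPM to 319.8, 330.5 and 420.1 (1.45 ± 0.09). Nr1h3, the sterol receptor LXR alpha, fell from 35.5, 31.3 and 41.0 CPM to 12.1, 11.6 and 13.1 (-1.54 ± 0.09). Egr2 and Pparg, picked after their values were seen, rose by 3.66 ± 0.30 and 1.55 ± 0.11. Pparg encodes a fatty acid sensor that alternative activation is known to use.

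Enzymes that feed or drain arginine moved strongly in places. Of 24 tested arginine and polyamine genes, 11 rose and 7 fell. Gatm, which makes the creatine precursor from arginine, rose from 14.7, 12.2 and 12.7 CPM to 173, 159 and 188 (3.72 ± 0.09), and spermidine synthase Srm from 8.28, 8.51 and 7.21 CPM to 25.9, 30.2 and 22.4 (1.71 ± 0.10). The transporter gene Slc7a7 (-1.11 ± 0.05) and the spermine oxidase gene Smox (-1.17 ± 0.06) fell. Slc7a2 and Slc7a7 encode cationic amino acid carriers and changed in opposite directions. Among 10 genes of tryptophan breakdown, which yields AhR ligands, 3 rose and 1 fell (40.0% called, near the 36.2% of all tested genes). The amino acid oxidase gene Il4i1 rose from 45.1, 20.1 and 26.2 CPM to 574, 463 and 494 (4.13 ± 0.25), Kmo from 8.28, 8.46 and 8.10 CPM to 33.5, 30.6 and 31.4 (1.94 ± 0.07), and Kynu by 1.31 ± 0.09. Qprt, of NAD synthesis, fell by 0.44, and no gene of this list fell when number 4 or number 6 was left out.

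Inflammatory cytokine and NF-kB genes fell more often than they rose. Among 20 cytokine genes, 5 rose and 11 fell (median -0.76). Tnf fell from 248, 93.6 and 163 CPM to 35.0, 14.5 and 16.6 (-2.93 ± 0.28), Il18 from 17.9, 11.4 and 15.3 CPM to 4.36, 3.20 and 4.32 (-1.90 ± 0.09), and the cytokine subunit gene Ebi3 by 1.02. Csf1, the growth factor of macrophages, went the other way, from 53.5, 36.5 and 50.3 CPM to 236, 175 and 214 (2.16 ± 0.15), and Osm, Il12a, Tgfb1 and Il6 were the other rises. The rises numbered 2 without the replicate block, 2 without number 5 and 3 without number 6. Of 21 NF-kB subunits and regulators, 2 rose and 15 fell (median -0.66). Nfkbiz, a nuclear cofactor of NF-kB, fell from 161, 101 and 130.4 CPM to 28.9, 15.4 and 17.3 (-2.70 ± 0.20), and Tnip1 (-1.68 ± 0.16), Nfkbie (-2.18 ± 0.22), Traf1 (-2.15 ± 0.26) and Relb (-1.29 ± 0.13) fell too. The 2 that rose, named after their values were seen, were subunit genes, Nfkb1 (0.42 ± 0.09) and Rel (0.50 ± 0.15), and 1 rose without the block or without any of the numbers 4, 5 and 6. By pair, the median of the list was -0.77, -0.49 and -0.88, smallest in number 5.

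Sensors and receptors for microbial products were mostly lower. Of 39 innate sensors and their adaptors, 5 rose and 22 fell (median -0.42). Tlr7, a sensor of single-stranded RNA, fell from 253, 231 and 273 CPM to 56.3, 52.5 and 56.4 (-2.20 ± 0.06). Naip2 (-1.28 ± 0.05) and Nlrc4 (-1.67 ± 0.10) of the NAIP-NLRC4 inflammasome fell, and so did Tlr13 (-1.08 ± 0.05). The rises were those of Nlrp1b, Tlr8, Tlr4, Tlr9 and Ticam1. The 4 Naip genes are paralogs, so some reads may have been split among them. Of 24 chemokine and chemoattractant receptors, 5 rose and 14 fell (median -1.14). The atypical receptor genes C5ar2 (-1.08 ± 0.06) and Ccrl2 (-2.55 ± 0.16) fell, as did the fractalkine receptor gene Cx3cr1, from 837, 745 and 855 CPM to 252, 239 and 278 (-1.66 ± 0.10). The complement receptor gene C3ar1 rose from 106, 131 and 95.3 CPM to 352, 369 and 255 (1.55 ± 0.10), and the nucleotide receptor gene P2ry6 (1.41 ± 0.08) rose as well, and Cxcr2 and S1pr4 were among the other rises.

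Of 35 tested Fc and lectin receptors, 11 rose and 17 fell. Clec4e, the sensor of mycobacterial glycolipid, fell from 1971, 1171 and 1514 CPM to 353, 220.3 and 178 (-2.66 ± 0.17), and its relatives Clec4n (-2.21 ± 0.08) and Clec4d fell with it. The inhibitory Fc receptor gene Fcgr2b rose from 238, 211 and 239 CPM to 683, 705 and 712 (1.61 ± 0.08), and Treml2 (1.74 ± 0.06) and Cd300lb (1.23 ± 0.06) rose. Chemokine ligands split as 6 up and 7 down of 16. Ccl24, a chemokine for eosinophils, rose from 9.10, 7.32 and 7.88 CPM to 118, 99.7 and 87.5 (3.65 ± 0.23), Ccl2 (2.01 ± 0.13) and Ccl7 (4.59 ± 0.56) rose, and Cxcl16 (-2.56 ± 0.17) and Cxcl2 (-2.35 ± 0.26) fell. Ccl17, named after its values were seen, had 1, 2 and 3 counts in medium and 75, 45 and 47 in IL-4.

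Interferon-stimulated genes gave no single direction, and their count rested on the design. Of 37 tested, 5 rose and 13 fell, against 2 and 5 without the replicate block. Leaving out number 4, 5 or 6 left 3 rises each time, and leaving out number 4 or 6 left 4 or 6 falls. Irf7, a factor that amplifies interferon production, rose from 82.6, 47.6 and 131 CPM to 189.9, 157 and 298 (1.36 ± 0.12), and the interferon brake Usp18 from 9.41, 4.30 and 9.85 CPM to 28.8, 20.1 and 32.5 (1.83 ± 0.19), and Zbp1, Oas1a and Ifi35 were the other rises. The guanylate-binding protein genes Gbp5 (-1.20 ± 0.26) and Gbp3 (-0.54 ± 0.09) fell, the latter with an adjusted p of 0.060 without the block. Of 20 MHC class II and costimulation genes, 6 rose and 2 fell (40.0% called, near the 36.2% of all tested genes). Without wild-type number 7, 9 rose and 5 fell. Pdcd1lg2, the inhibitory ligand PD-L2, rose from 2.51, 2.11 and 2.39 CPM to 52.4, 46.8 and 44.4 (4.35 ± 0.18) and the peptide-loading genes H2-DMa (0.64 ± 0.05) and H2-DMb1 (0.41 ± 0.05) rose, while the costimulatory ligand gene Icosl (-1.81 ± 0.16) fell, as did Cd80.

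Genes that build ribosomes rose while ribosomal proteins themselves edged down. Of 48 ribosome biogenesis genes, 42 rose and 1 fell, with a median of 0.51, and the pairs gave 0.52, 0.54 and 0.49. Nop58, a core protein of small nucleolar particles, rose from 53.9, 52.3 and 47.2 CPM to 98.2, 98.5 and 85.1 (0.88 ± 0.04), and Nolc1, a nucleolar phosphoprotein, from 40.4, 43.4 and 36.0 CPM to 76.2, 79.6 and 67.5 (0.90 ± 0.05). Tsr1, an assembly factor of the small subunit, rose from 20.1, 21.0 and 20.4 CPM to 51.4, 50.9 and 42.2 (1.23 ± 0.06). Each change was moderate. The IL-4 libraries of these 3 genes lay above the medium libraries, which picking members by smallest p favours. The genes Gar1 (1.34 ± 0.07), Wdr43 (0.71 ± 0.05) and Grwd1 (1.05 ± 0.07) also rose. The 1 fall, named after its value was seen, was that of Nop10 (-0.28 ± 0.07), and no member fell when number 5 was left out.

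Cytosolic ribosomal protein genes fell by small amounts, 37 of 40 tested, with 0 rises and a median of -0.18. Rps9 went from 1343, 1262 and 1254 CPM to 1012, 1054 and 1015 (-0.32 ± 0.05) and Rplp0, of the stalk, from 1822, 1774 and 1797 CPM to 1521, 1578 and 1530 (-0.22 ± 0.05). The number called was fragile, at 24 without the replicate block and 13, 14 and 10 without number 4, 5 and 6. The median kept its sign in each setting, between -0.19 and -0.16, and the pairs gave -0.20, -0.15 and -0.17. Over all tested protein-coding genes with a symbol of Rpl or Rps, a number and at most a short suffix, 63 of 77 fell and 0 rose. This set leaves out Rplp0. These genes have many processed pseudogenes, which may have taken some of their reads. Of 36 translation factors 16 rose and 7 fell, with the initiation factor genes Eif1a (0.53 ± 0.05) and Eif3b (0.42 ± 0.04) among the rises and the elongation factor gene Eef1a1 (-0.19 ± 0.04), not called without number 6, among the falls. The falls among translation factors numbered 4 without number 4 or number 6.

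The supply lines of protein synthesis rose in part. Of 28 chaperones and regulators of the endoplasmic reticulum, 15 rose and 1, Herpud1 (-0.61 ± 0.11), named after its value was seen, fell (median 0.19). The rises numbered 10 without the replicate block, 11 without number 5, 12 without number 6 and 20 with the 6 libraries of this genotype alone. Xbp1, a factor of the unfolded protein response, rose from 294, 301 and 259 CPM to 391, 390.0 and 386 (0.45 ± 0.06), and Dnajb9 (0.61 ± 0.07), Pdia4 (0.67 ± 0.09) and Hyou1 (0.45 ± 0.06) rose, the last with an adjusted p of 0.063 without the block. Among 37 tRNA synthetases and amino acid stress genes, 15 rose and 6 fell, against 9 and 3 without the replicate block and 3 falls without number 4 or number 6. The aspartate synthetase gene Dars rose from 70.9, 77.6 and 75.3 CPM to 139, 138 and 138 (0.89 ± 0.05), and Rars (0.58 ± 0.05) and Farsb (0.65 ± 0.06) rose. Of 30 heat shock chaperones 16 rose and 2 fell, led by Hsph1 (0.85 ± 0.06) and Hspd1 (0.40 ± 0.05) up and Dnajb4 and Hspa8 down, but 9 rose and 1 fell when number 5 or number 6 was left out. In nucleotide synthesis, 16 of 36 rose and 7 fell. Prps1, which makes the ribose donor of all nucleotides, rose from 25.4, 27.5 and 27.0 CPM to 171, 157 and 180.1 (2.67 ± 0.07) and the uridine kinase gene Uck2 from 154, 157 and 146 CPM to 369, 398 and 396 (1.35 ± 0.05). The falls in that list numbered 3 without the block, 4 without number 4 and 3 without number 6.

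Antioxidant genes fell together. Of 33 genes of NRF2, glutathione and thioredoxin, 3 rose and 23 fell, with a median of -0.41 and pair medians of -0.44, -0.37 and -0.43. Hmox1, haem oxygenase, fell from 236, 172 and 225 CPM to 89.6, 61.8 and 88.2 (-1.41 ± 0.07), and Prdx6, a peroxidase gene, from 394, 440.3 and 405 CPM to 182, 192 and 173 (-1.18 ± 0.06). The cystine transporter gene Slc7a11 fell from 260.2, 182 and 179.8 CPM to 57.3, 45.9 and 35.6 (-2.17 ± 0.18). None of these groups overlapped, which picking members by smallest p favours, and 43.7% of all tested genes had no overlap. The genes Osgin1 (-1.69 ± 0.13), Blvrb (-0.76 ± 0.08) and Pgd (-0.61 ± 0.04) fell too, and the 3 rises were those of Me1, Mgst1 and Txnrd2. Iron genes shared the direction in part, with 6 rises and 10 falls of 24, and 3 rises without number 4. Beside Fth1, the mitochondrial iron importer gene Slc25a37 fell from 138, 103 and 101 CPM to 19.1, 17.7 and 13.3 (-2.77 ± 0.15) and Slc11a1 (-1.41 ± 0.08), the phagosomal metal transporter gene, fell. The haem exporter gene Flvcr1 rose from 30.8, 29.2 and 28.7 CPM to 184, 170.2 and 154 (2.52 ± 0.05), and Hfe (1.16 ± 0.05) rose.

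**Figure D3:**
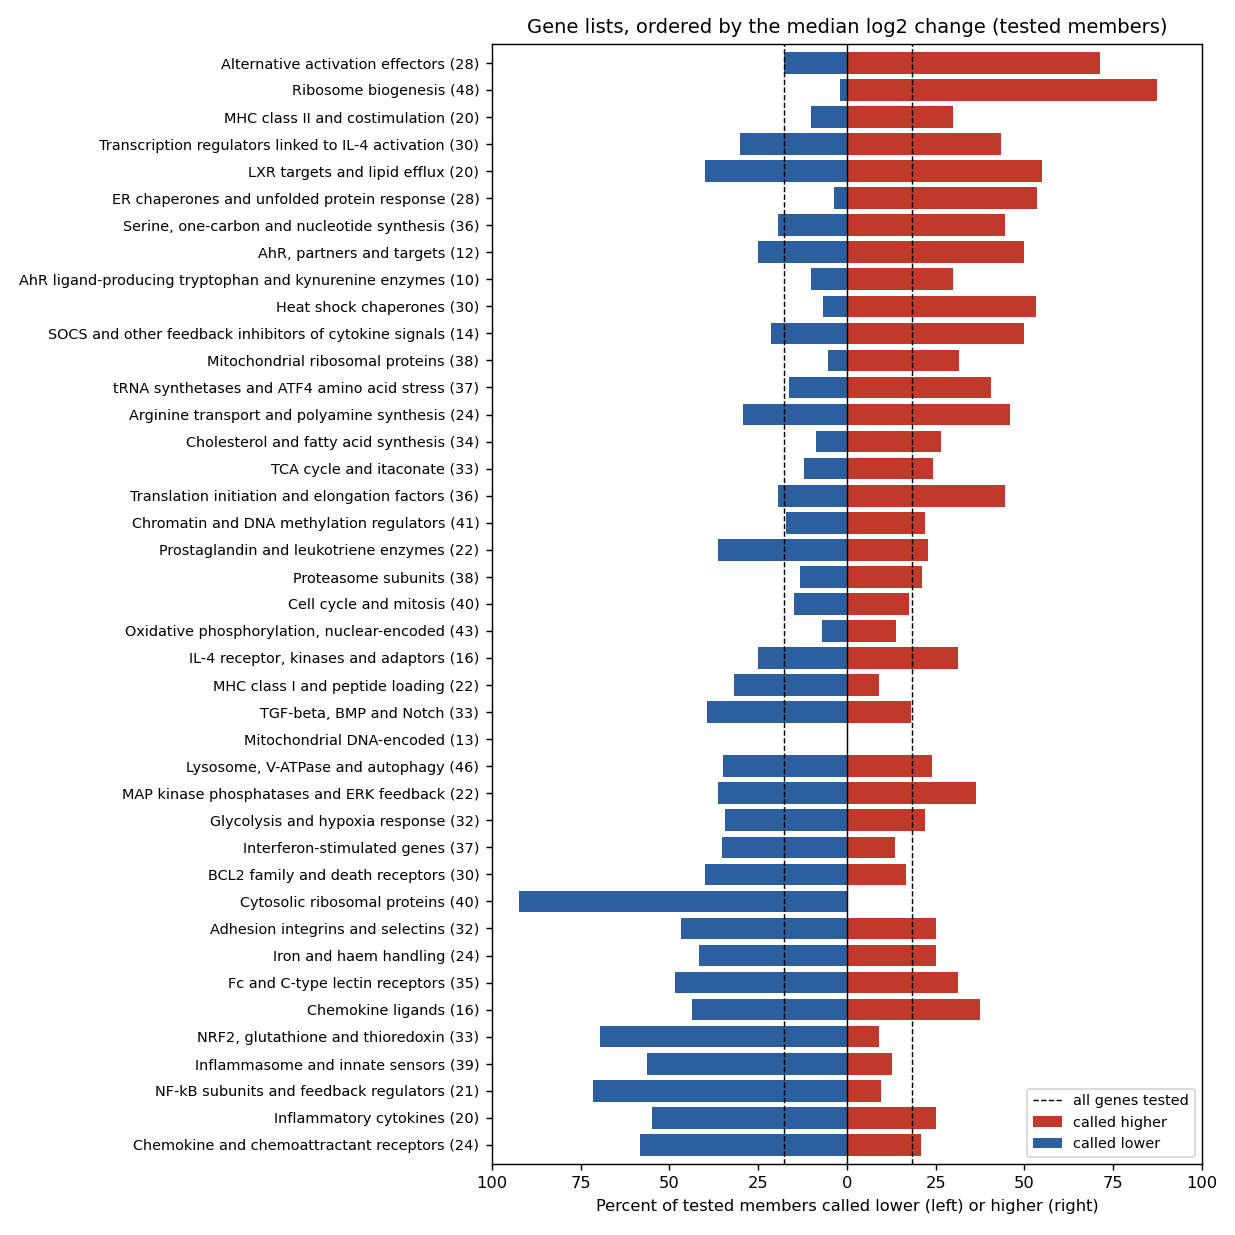
Percent of the tested members of each of 41 gene lists called lower (left) and higher (right) with IL-4, with dashed lines at the shares over all tested genes, 17.8% and 18.4%. Ribosome biogenesis (42 of 48) reaches furthest to the right and cytosolic ribosomal proteins (37 of 40) furthest to the left.

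Genes of energy metabolism changed in both directions. Of 32 glycolysis and hypoxia genes, 7 rose and 11 fell. Pfkfb4 and Pfkfb3 encode enzymes that set the level of the same glycolytic activator, and they moved in opposite directions, 56.5, 64.0 and 66.3 to 189, 196 and 202 CPM (1.65 ± 0.09) and 51.0, 63.1 and 60.2 to 23.6, 27.3 and 27.8 CPM (-1.15 ± 0.07). The lactate carriers split likewise, with Slc16a1 (1.52 ± 0.09) up and Slc16a3 (-1.26 ± 0.09) down. The list of 33 TCA cycle and itaconate genes held 8 rises, led by Me1 (2.98 ± 0.34), and 4 falls, those of Acod1, Glud1 (-0.34 ± 0.04), Slc25a11 and Me2, and its share called, 36.4%, was near the 36.2% of all genes. The rises numbered 4, 4 and 5 without number 4, 5 and 6. Of 43 nuclear genes of oxidative phosphorylation, 6 rose and 3 (Ndufa2, Uqcrq and Cox4i1) fell, beside 36.2% called over all genes, with 3 rises without number 5 or number 6. All 13 genes of mitochondrial DNA failed to pass, with changes from -0.18 to 0.43.

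Lipid transport genes changed in both directions. Of 20 LXR targets and lipid efflux genes, 11 rose and 8 fell. The cholesterol exporters parted: Abca1 fell from 178, 209 and 198 CPM to 29.1, 31.4 and 30.5 (-2.68 ± 0.15) and Abcg1 rose from 40.0, 44.8 and 65.8 CPM to 182, 195 and 219 (2.01 ± 0.11). Groups overlapped for neither gene, which the naming of list members by smallest p favours. The fatty acid carrier gene Fabp5 (1.53 ± 0.08) and the lysosomal cholesterol exporter gene Npc1 (0.76 ± 0.07) rose, and Mylip (-0.96 ± 0.06) fell. In prostaglandin synthesis, 5 of 22 genes rose and 8 fell. Ptgs1, the constitutive cyclooxygenase, rose from 5.19, 5.54 and 4.34 CPM to 35.8, 48.2 and 50.1 (3.14 ± 0.22), thromboxane synthase Tbxas1 from 20.7, 21.3 and 23.4 CPM to 155, 175 and 187 (2.98 ± 0.11), and prostaglandin E synthase Ptges fell from 21.1, 15.2 and 15.1 CPM to 6.46, 5.95 and 3.48 (-1.71 ± 0.16). The lipase gene Pla2g7 (-1.78 ± 0.11) and the prostaglandin-degrading gene Hpgd (-1.04 ± 0.10) fell, and the other rises were those of Pla2g15, Ptgir and Hpgds.

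Among organelle genes the changes were mixed, and the shares called were near the 36.2% of all tested genes for mitochondrial ribosomal proteins (36.8%), proteasome subunits (34.2%), lipid synthesis (35.3%) and MHC class I (40.9%). Of 46 lysosome and autophagy genes, 11 rose and 16 fell, the latter 10 without number 6. Atp6v0a1, a subunit of the proton pump that acidifies lysosomes, rose from 95.0, 97.5 and 94.9 CPM to 281, 295 and 257 (1.53 ± 0.06), and the pump genes Atp6v1b2 (0.72 ± 0.04) and Atp6v1a (0.74 ± 0.04) rose, while the autophagy kinase gene Ulk1 (-0.80 ± 0.06) fell. Of 38 mitochondrial ribosomal proteins, 12 rose and 2 fell (7 rises without number 6, 1 fall without the block or without number 4 or 5), among them Mrps5 (0.59 ± 0.08) up and Mrpl39 (-0.37 ± 0.06) and Mrpl9 down. Of 38 proteasome subunits, 8 rose and 5 fell, led by the activator gene Psme4 (0.70 ± 0.06), and the falls were those of Psma7, Psmb5, Psmb6, Psmd8 and Psme2, with 4 rises without number 5, 0 falls without the block and 1 without number 4 or 6. Among 34 genes of cholesterol and fatty acid synthesis 9 rose and 3 fell, with the desaturase gene Scd2 (0.92 ± 0.08) up and Fads1 (-0.71 ± 0.09) and Fdft1 among those down. Those counts were 5 and 1 without number 4, and 1 fell also without the block, without number 6 or without wild-type number 2. Of 22 MHC class I and peptide loading genes, 2 rose and 7 fell, among the falls Tapbpl (-0.43 ± 0.06) and H2-D1 (-0.31 ± 0.06), and the rises were those of Erap1 and Tapbp. Class I heavy chain genes are close paralogs whose reads may have been split. The falls numbered 3 without the block or without number 4, and the rises ranged from 1 to 5 when a number was left out.

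Adhesion and signalling regulators changed in both directions with large single effects. Of 32 adhesion and matrix genes, 8 rose and 15 fell. Itgb3, an integrin chain, rose from 33.4, 39.9 and 41.2 CPM to 237, 254 and 279 (2.75 ± 0.06), Pecam1 from 17.4, 18.5 and 26.9 CPM to 128, 145 and 169 (2.83 ± 0.08) and the urokinase gene Plau from 10.5, 8.33 and 12.9 CPM to 61.4, 47.7 and 69.6 (2.50 ± 0.09). The clotting factor gene F5 (-1.05 ± 0.05) fell while F7 (1.20 ± 0.07) rose. Of 22 MAP kinase phosphatases and ERK feedback genes, 8 rose and 8 fell, with Dusp5 (1.85 ± 0.11), Dusp7 (1.80 ± 0.10) and Dusp22 (1.52 ± 0.06) up and Dusp6 (-2.06 ± 0.16) down. Among 33 TGF-beta, BMP and Notch genes, 6 rose and 13 fell, the latter 8 without number 6. Beside Jag1, Smad3 (-1.99 ± 0.14) and Notch2 (-1.02 ± 0.07) fell. The BCL2 and death receptor list of 30 held 5 rises and 12 falls: the pro-death gene Bcl2l11 rose from 143, 114 and 129 CPM to 359, 337 and 365 (1.46 ± 0.08), and Bak1, Casp9 and Bcl2l1 were among the other rises, while Fas (-2.37 ± 0.21), Pmaip1 (-1.67 ± 0.15) and Birc3 (-1.43 ± 0.15) fell. Of 41 chromatin regulators, 9 rose and 7 fell (39.0% called, near the 36.2% of all tested genes), led by Dnmt3a (1.14 ± 0.05), a DNA methyltransferase gene, and Kdm7a (1.05 ± 0.06), a histone demethylase gene, with 3 and 4 falls without number 4 and 5. Of 40 cell cycle genes 7 rose and 6 fell (32.5% called), with 4 rises without number 6, 3 falls without the block and 3 without number 5 or 6.

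**Figure D4:**
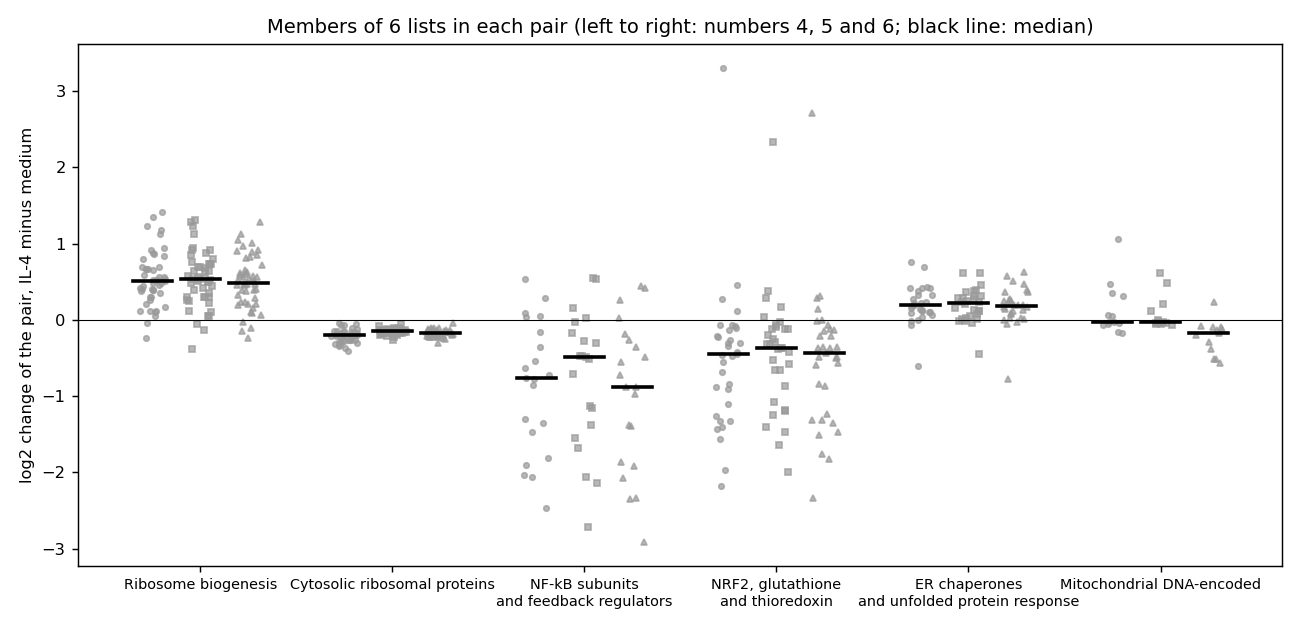
Log2 change of each member in each pair (number 4, 5 and 6) for 6 lists, with the list's median in that pair as a bar. The medians of ribosome biogenesis (0.49 to 0.54) lie above 0 and those of NF-kB (-0.88 to -0.49) and NRF2 genes (-0.44 to -0.37) below it in every pair.

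Markers of the sampled cells themselves moved with IL-4. In bulk RNA, fewer cells of a type and less RNA per cell cannot be told apart. Of 20 monocyte markers, 15 fell and 1 rose. The falls numbered 9 without the replicate block and the rises 2 without wild-type number 7. Cd14 fell from 691, 557 and 528 CPM to 170.5, 180.2 and 121 (-1.93 ± 0.17) and Hp, haptoglobin, from 1460, 809.5 and 1061 CPM to 411, 345 and 341 (-1.57 ± 0.13), while Klf4 rose by 0.62 ± 0.06. Of 12 markers of non-classical monocytes, 8 fell and 2 (Cd36 and Fabp4) rose, the falls 5 without the block, and their sum went from 2119 to 2743 CPM in medium to 1560 to 1782 CPM in IL-4. Of 14 dendritic cell markers 4 rose and 2 fell (42.9% called, beside 36.2% of all tested genes). Batf3, Flt3 (1.28 ± 0.06), Itgax (1.23 ± 0.11) and Cd209a rose, and Ccr7 (-2.57 ± 0.33) and Siglech fell. The falls ranged from 1 to 4 over the settings with a library left out. Their sum was 428 to 567 CPM in medium and 589 to 692 CPM in IL-4.

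Markers of cells that the isolation could have carried over mostly did not pass, and their levels ranged widely. Of all tested genes 36.2% passed, and of those with a mean log2 CPM under 0 15% passed. The shares were 21% for neutrophils, 25% for basophils and mast cells, 22% for T and NK cells and 8.33% for erythroid cells and platelets. Whether these shares differ from those of genes at the same level was not tested. None of 9 eosinophil and 5 B cell markers tested passed in either direction. Summed eosinophil markers were 84.2, 32.8 and 15.9 CPM in medium and 70.5, 34.6 and 16.1 CPM in IL-4, so they varied by number and hardly by treatment. Of 19 neutrophil markers 3 rose and 1 fell, the latter 0 without the block or without any 1 of the numbers 2 to 6 and 8 without wild-type number 7, and their sum was 1162 to 1598 CPM in medium and 1263 to 1649 CPM in IL-4. The chemokine receptor gene Cxcr2 was the largest of these rises, at 3.12 ± 0.22, Csf3r and Padi4 were the others, and Mmp9 fell. Of 8 basophil and mast cell markers, Kit (-2.55 ± 0.27) and Hdc (-1.12 ± 0.08) fell, with Cma1 and Tpsb2 at 0 in the 6 libraries and a summed level of 98.8 to 212 CPM in medium and 67.1 to 173 CPM in IL-4. T and NK cell markers summed to 21.3 to 34.0 CPM in IL-4, and 1 of 9 tested (Il7r) rose and 1 (Tcf7) fell, the latter 0 without the block and 2 without number 4. Of 12 erythroid and platelet markers, 1, Tfrc (1.06 ± 0.06), rose and 0 fell, the latter 5 without wild-type number 7 and 4 with the 6 libraries of this genotype alone. The part of these cells in the changes above was not tested.

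By gene class, protein-coding genes made up most of the response. Of 12082 tested, 2545 rose and 2346 fell, 40.5% in all, at a median of the mean log2 CPM of 4.78. Of 417 long intergenic RNAs, 51 rose and 74 fell (30%), and of 389 antisense RNAs 24 rose and 55 fell (20.3%). These classes lie lower, at medians of -0.52 and -0.64, and antisense reads may belong to the partner gene where the counting ignored strand. Solute carriers, the family of Slc7a2 and Slc30a4, held 60 rises and 54 falls among 210 genes (54.3% called). DEAD-box RNA helicases (Ddx) held 14 rises and 4 falls among 36 (50%).

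Set beside wild type, the response of the libraries labelled AhR-deficient differed for no gene past the threshold in the main fit. In this edgeR fit 0 of 14754 genes (0%) passed the test of the difference between the IL-4 responses. The smallest adjusted p was 0.10, and 1251 genes had an unadjusted p under 0.05. With edgeR the count was 1 without wild-type number 1, 7 without wild-type number 7 and 268 when genes with low counts were kept. DESeq2 called 58. Among the genes called here, 4575 were also called in wild type in the same direction, 765 were not called there and 4 were called in the opposite direction. In wild type 6297 genes were called (42.7%), with 4 libraries per group instead of 3. Of the 1277 genes that changed by 1 or more here, 914 had a wild-type change within 0.5 of theirs. Xist was at 987 to 1284 CPM in the 6 libraries of this genotype and at 0.0242 to 2.11 CPM in wild type, an RNA made from the inactive X chromosome, so genotype and what sets Xist apart cannot be told apart in this comparison.

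The 5 genes with the smallest p for the difference were described although none passed. Tlr7 fell by 2.20 here and changed by -2.77 ± 0.05 in wild type, a difference of 0.57 ± 0.08 (edgeR, adjusted p = 0.10). Tlr7 is on the X chromosome. Rmi2, of a DNA repair complex, rose by 1.74 ± 0.08 here and changed by 2.50 ± 0.07 in wild type. Sik1, a kinase gene, changed by 0.35 ± 0.07 here and -0.25 ± 0.06 in wild type, and Emp1, a membrane protein gene, by 0.65 ± 0.04 and 0.25 ± 0.04. Gclm, a subunit of the enzyme that starts glutathione synthesis, was at 63.2, 52.8 and 64.5 CPM in medium and 68.5, 59.1 and 71.0 in IL-4 here (0.14 ± 0.07, adjusted p = 0.15), against 0.77 ± 0.06 in wild type. Medium and IL-4 libraries of this genotype overlapped for Sik1, Gclm and Emp1. Without the replicate block the adjusted p of Sik1 here was 0.11, and without wild-type number 1 that of Gclm was 0.045 (edgeR). Among the largest changes, Arg1 rose by 9.37 here and 10.42 ± 0.12 in wild type (unadjusted p of the difference 0.022, adjusted p = 0.53). Thbs1 fell by 2.58 here and changed by -3.51 ± 0.12 in wild type (adjusted p of the difference 0.17, edgeR). Socs1, Mrc1 and Il1b had wild-type changes of 7.58 ± 0.14, 6.43 ± 0.11 and -3.85 ± 0.23.

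**Figure D5:**
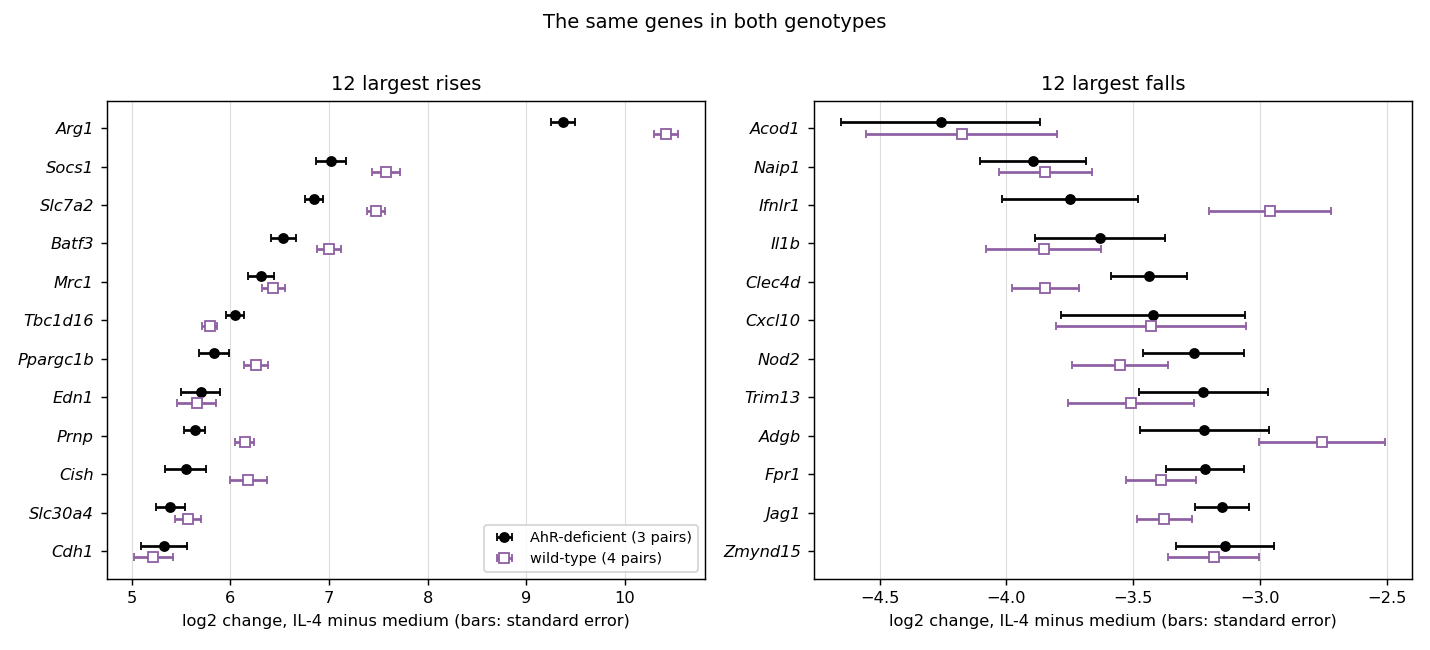
Log2 change with IL-4 ± SE for the 12 largest rises and the 12 largest falls, with circles for the libraries labelled AhR-deficient (3 pairs) and squares for wild type (4 pairs), from the same fit. Every gene has the same sign in both genotypes, and the pairs of points lie close beside the size of the changes.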

How the data were processed

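The table holds raw counts per gene that the authors deposited, 1 column for each of 14 libraries, with 33432502 to 42885079 counts each. Per the labels, 500 ng of RNA went into a stranded kit for polyadenylated RNA and 100-nt paired reads were sequenced. Per the submitters' processing notes, FastQC, STAR and the build mm10 were used. For the counting program, its annotation and its strand setting, nothing is given in the sources used here. Of 55487 gene IDs, 55094 matched GENCODE M21 with their version. Gene positions and symbols come from that match.

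The main test was edgeR 4.0.16 (R 4.3.3), a quasi-likelihood F-test on all 14 libraries with TMM scaling, filterByExpr on the 4 groups, the title number as a replicate block and 1 IL-4 effect per genotype, which leaves 5 residual degrees of freedom. Fitting all libraries lets the wild-type libraries add to the estimate of the spread. Calls used Benjamini-Hochberg adjusted p under 0.05 over 14754 genes. A standard error is the log2 change divided by the square root of F. A fitted change from a level near 0 depends on the prior count. Same-numbered libraries of this genotype deviated together from their group means (r = 0.616, 0.697 and 0.716 for numbers 4, 5 and 6, over 8688 genes). Their highest r with another number was -0.275 to -0.265. Deviations within a group of 3 sum to 0, so a positive r with the same number pulls the others below 0. The numbers were taken to pair the libraries from the r of the same number alone. In wild type r was 0.473 to 0.705 for numbers 1, 2 and 3. For wild-type number 7 it was 0.118, below its highest r with another number, 0.174. Without wild-type number 7, 3002 genes rose and 2897 fell. Replicate libraries differed by far more than sampling noise (chi-square per degree of freedom 20 to 53.3). CPM use the TMM-scaled library sizes. The script was tested on simulated counts.

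Ahr, Il4ra and Stat6 are always named. From the calls whose groups did not overlap and whose log2 CPM averaged at least 1, the text names the 12 largest rises and falls, the 10 largest rises and falls in CPM and 2 of each per expression bin. In each list the rule takes up to 6 members of smallest p and up to 2 furthest from the threshold, and for the difference between genotypes the 5 smallest p. Lists are described by counts and medians, with no set test, and a few members are not reported here by name. The comparison and the 50 lists were chosen with earlier results of these data known. Intervals and floors cover counting error only. Alternatives were DESeq2 1.42.0, limma-voom (limma 3.58.1), other scalings and filters, other treatments of the block, the 6 libraries alone, and leaving out each number.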

Additional observations from a re-analysis of the deposited data

How the results depend on the processing

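In the libraries labelled AhR-deficient the counts of genes that rose and fell stayed within 1.5 times of 2717 and 2627 under every alternative run, from 1998 and 1834 without number 6 to 3206 and 2992 with only the 6 libraries of this genotype. The alternatives shared 70.6 to 99.7% of the 5344 calls, and none called a gene in the opposite direction. Rises made up 48.2 to 53.3% of calls against 50.8% in the main test. Without the replicate block 2265 rose and 2094 fell. The count of genes with a difference between the genotypes was 0 in the main edgeR fit and 58 with DESeq2's Wald test. It was 268 with edgeR and no filter on low counts, and leaving out 1 number at a time in edgeR gave 0 to 7. The cause was not tested. Leaving out 1 number gave -0.20 to 0.013 for Alox15 and -0.11 to 0.057 for Il1rn, neither of which passed; the sign turned without number 4 for Alox15 and without number 6 for Il1rn. Of 272 tested genes named in the text, 30 lost the call without the replicate block and 30 in at least 1 of the 3 runs that left out number 4, 5 or 6. The latter were Ahrr, Cox4i1, Eef1a1, Fdft1, Fn1, Hpgds, Hspa8, Ifi35, Il12a, Il6, Me2, Mmp9, Mrpl9, Nop10, Oas1a, Padi4, Pias3, Psmb5, Psmb6, Psmd8, Psme2, Ptpn11, Qprt, Rel, Siglech, Tapbp, Tgfb1, Tgm2, Ticam1 and Tyk2, and none of them changed sign. Counts in single lists moved more, as given beside them, and rest on members near the threshold. Low counts limit the bins under a mean log2 CPM of 2, where the median standard error was 0.20 to 0.41.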

Other observations

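Some families that no list covers can be read off by symbol, beside 18.4% up, 17.8% down and 36.2% called over all tested genes. Of 37 tested ABC transporters 12 rose and 9 fell (56.8% called), of 44 deubiquitinases whose symbol begins with Usp 14 rose and 5 fell (43.2%), and of 28 Arhgap genes, which encode GTPase-activating proteins, 10 rose and 5 fell (53.6%). Of 322 zinc finger genes whose symbol begins with Zfp 46 rose and 45 fell (28.3%). Of 13 Klf transcription factors 5 rose and 4 fell (69.2%). Of 43 Trim genes 4 rose and 10 fell (32.6%), and Trim13 was the 1 that fell by 1 or more.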
